A study of Arabidopsis thaliana with 9 samples.

Results

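On the chromosome arms of Arabidopsis thaliana, 333 windows of 500 bp held more small RNA (sRNA) in an AGO3 than in a control immunoprecipitate. They met the ratio given below and neither window beside them did, out of 238296 windows on chromosomes 1 to 5. They were chosen by 2 values. Reads scaled to library size (RPM, per 1000000 reads) plus 1 in the AGO3 immunoprecipitate had to be at least 4 times RPM plus 1 in the control immunoprecipitate, and no directly adjacent window could meet that ratio. A window counted as on an arm when it lay over 2.5 Mb from 15, 4, 14, 4 and 12 Mb on chromosomes 1 to 5. The AGO3 and control reads of these windows, and their neighbours' ratios, are therefore descriptions of how they were selected.

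ARGONAUTE proteins bind sRNAs and use them as guides to matching transcripts or loci. Plant sRNAs include microRNAs (miRNAs), cut from hairpin transcripts, and small interfering RNAs (siRNAs), cut from double-stranded RNA, which often cover transposons and repeats in broad blocks. AGO3 is the close paralogue and genomic neighbour of AGO2.

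All material was siliques, the fruits that hold the developing seeds, of the Columbia-0 accession, 1 to 5 days after pollination. The AGO3 immunoprecipitate came from ago3-3 plants carrying pAGO3:FHA-AGO3, a tagged AGO3 under a promoter named for AGO3 itself, and was eluted from FLAG beads. The control immunoprecipitate was eluted from the same kind of beads but from wild-type plants, and the total sRNA library was also wild type. Each sRNA library was a single sample, so the tag, the ago3-3 background and the library itself cannot be told apart, and no difference between sRNA libraries has a replicate check or a p-value. The mRNA came from ago3-3 homozygous, ago3-3 heterozygous and wild-type siliques, 2 libraries each, and nothing in the labels ties these to the plants of the sRNA libraries. The sRNA tables held 37189850 reads for AGO3, 25613847 for the control and 40262802 for total sRNA on chromosomes 1 to 5. The mRNA libraries held 30338426 to 36258968 counts. Homozygous replicate 2 and wild type replicate 1 lay apart from the other 4 on the first principal component (44.2 and 49.9 against -27.1 to -20.0).

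At these depths a window without a control read needed 112 AGO3 reads to reach the ratio. Of all windows, 1314 (0.551%) reached it, and of the 10088 arm windows with at least 112 AGO3 reads, 1062 (10.5%) did. Of those, 729 touched another enriched window and are called clustered here, and 333 were isolated, which is 0.177% of the 188296 arm windows. Chromosomes 1 to 5 held 84, 56, 66, 50 and 77 isolated windows. The same rule with the libraries exchanged, control over AGO3, picked 471 isolated arm windows (0.25%), at which 77 control reads are enough, so isolated windows past the ratio were not more frequent towards AGO3 than towards the control. The 3 isolated windows just inside the threshold stood at 4.005, 4.01 and 4.01, and 2 of them had 112 AGO3 reads and no control read; the 3 just outside stood at 3.99, 3.98 and 3.98.

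The isolated windows held fewer AGO3 reads than the other enriched windows, but more than the arm windows with at least 112. The median was 1004 in clustered windows, 1057.5 in enriched windows within 2.5 Mb of the named positions and 289 in those arm windows. In the isolated windows the median was 411 AGO3, 16 control and 36 total sRNA reads, and 77 of them held 1000 AGO3 reads or more. The ratio over control had a median of 6.01 and ran to 74.6, against a median of 9.43 in the clustered arm windows and 7.52 in the 252 enriched windows within 2.5 Mb of the named positions. Together they took 1.05% of the AGO3 library, 0.125% of the control and 0.246% of total sRNA; the clustered windows took 12.1% of AGO3 reads. In 41 isolated windows no control read was found, for which a count of 0 allows up to 0.117 RPM.

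Total sRNA played no part in the choice, although a comparison with it uses the same AGO3 reads. By the same ratio of 4, now over total sRNA, 226 isolated windows (67.9%, exact binomial 95% interval 62.6% to 72.9%, counting error only as for all intervals here) were also higher in AGO3, against 80.2% of the clustered windows, 63.9% of those near the centromeres and 11.3% of the 10088 arm windows with enough AGO3 reads. In 6 isolated windows the RPM was higher in total sRNA than in AGO3. Total RPM was above control RPM in 73.0% of isolated windows, against 93.8% of clustered ones and 67.8% of arm windows with enough AGO3 reads. Of the isolated windows, 87 (26.1%, 21.5% to 31.2%) held at most 10 total reads, against 26 of 729 clustered windows (3.57%, 2.34% to 5.18%). The share was 2.76% in arm windows with enough AGO3 reads and 69.7% over all windows of chromosomes 1 to 5. The limit of 10 reads was chosen after values were seen. Clustered windows adjoin one another and are not independent, so the intervals given for them are likely too narrow.

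**Figure D1:**
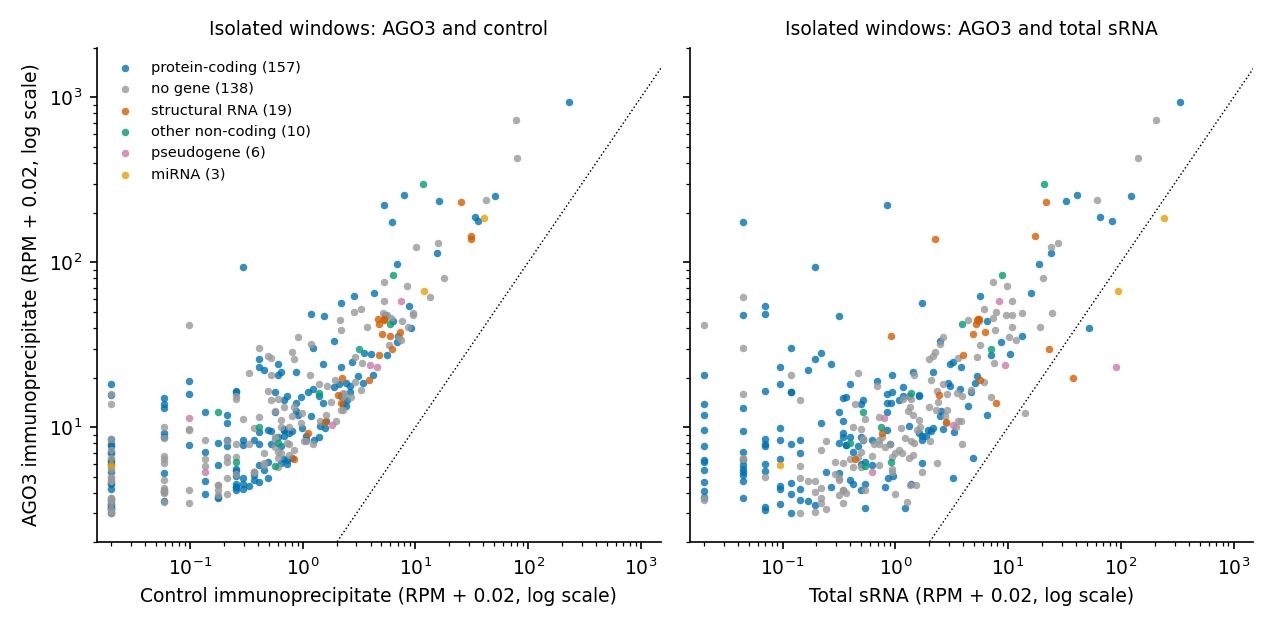
Each point is 1 of the 333 isolated windows, coloured by the gene class it overlaps. AGO3 RPM is plotted against control RPM (left) and total sRNA RPM (right), on log scales after adding 0.02 so that windows without reads can be drawn; the dotted line marks equality. All points lie above the line on the left, as the rule requires, while on the right 6 lie below it and 87 windows with at most 10 total reads lie at or below 0.248 RPM.

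The genes at the windows were looked up by position only; strand, exons and introns were not used here. Where several genes overlapped a window, miRNA and structural RNA genes took precedence over protein-coding ones. By that order 157 isolated windows (47.1%, 41.7% to 52.7%) overlapped a protein-coding gene, 138 (41.4%, 36.1% to 46.9%) no gene, 19 (5.71%, 3.47% to 8.77%) a structural RNA gene, 10 another non-coding RNA gene, 6 a pseudogene and 3 a miRNA gene. Clustered arm windows lay at protein-coding genes in 36.4% and outside genes in 59.3%. None of the 729 overlapped a structural RNA or miRNA gene. For independent windows this allows a share of up to 0.505%, but clustered windows adjoin one another, so that limit is likely too low. Structural RNA windows with over 100 total reads held a median of 98.2% of the AGO3 reads of 3 windows. Reads so confined leave few beside them, so the isolation rule itself tends to keep such genes out of the clustered windows. With protein-coding genes taking precedence, 170 isolated windows (51.1%) counted as protein-coding and 6 (1.80%) as structural RNA. Over all windows of chromosomes 1 to 5, the first order gave 61.6% protein-coding, 25.7% without a gene and 10.3% pseudogene. In the arm windows with enough AGO3 reads, 30.7% were protein-coding, 47.7% without a gene, 3.38% structural RNA and 1.56% miRNA by the first order. Another 3.50% were other non-coding and 13.2% pseudogene, against 3.00% and 1.80% of the isolated windows. With protein-coding genes first, 3329 of these 10088 windows were protein-coding, and 1.47% and 1.19% were structural RNA and miRNA. By that second order the structural RNA share of the isolated windows was near the background, inside its interval of 0.664% to 3.88%.

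**Figure D2:**
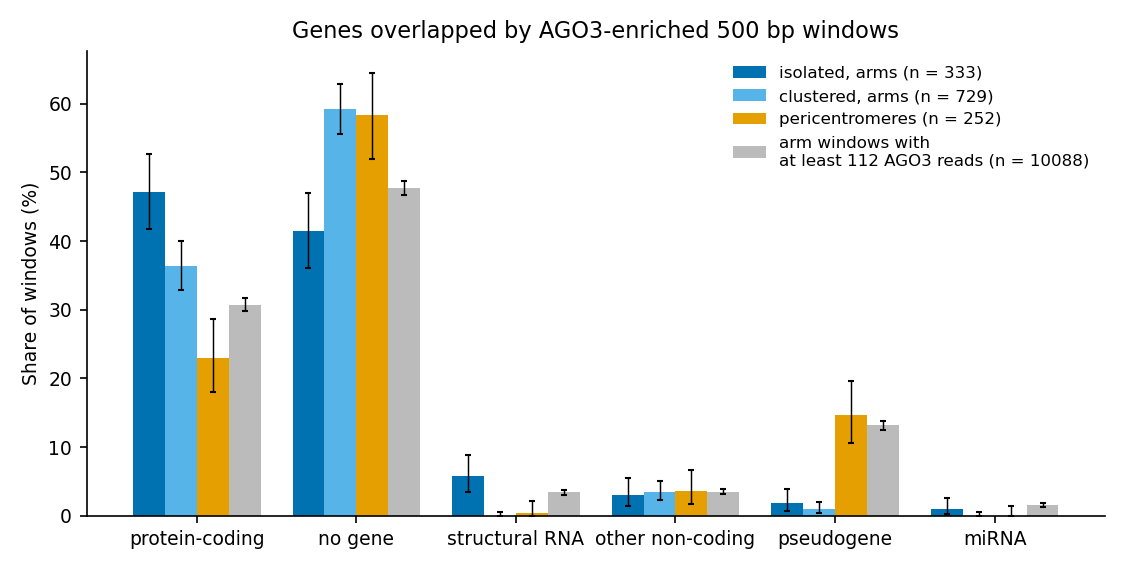
Bars give the share of windows (%) that overlap each gene class, for isolated, clustered and pericentromeric enriched windows and for all arm windows with at least 112 AGO3 reads; error bars are 95% intervals by the exact binomial method, for counting error alone. Isolated windows were at protein-coding genes in 47.1% and clustered ones in 36.4%, and structural RNA genes appear in 5.71% of isolated windows and in none of the clustered ones.

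Among the structural RNA genes, those for glutamate tRNA were the most numerous at isolated windows. Transfer RNAs carry amino acids to the ribosome, and fragments of them are known to occur in sRNA libraries. Of 15 isolated windows at tRNA genes, 11 held a tRNA-Glu gene, 2 a tRNA-Tyr gene, 1 a tRNA-Gly gene and 1 a tRNA-Ala gene. The arms held 22 windows with a tRNA-Glu gene, and 11 of them met the ratio. Of the 22, 12 had at least 112 AGO3 reads. That minimum comes from the ratio itself, so 11 of 12 only describes how the windows were chosen. Over all tRNA genes, 134 arm windows had enough reads and 15 met it, with a median ratio of 1.69. All 10 tRNA-His windows had enough reads, with a median of 2044.5 AGO3 reads, and reached at most 1.69.

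The window at the tRNA-Glu gene AT1G09110, chr1:2939001-2939500, held 8648 AGO3, 654 control and 869 total reads, a ratio of 8.80. This window also overlaps RPT5B, a gene for a subunit of the proteasome's regulatory particle. The windows at AT5G66755, AT1G20170, AT5G45715 and AT4G37175 held 1685, 1680, 1656 and 1565 AGO3 reads, 120, 135, 134 and 122 control reads, and 218, 220, 213 and 207 total reads. These 4 lie on 3 chromosomes and differ from each other by little in every library; tRNA-Glu genes are near-identical copies, and the sources used here do not say how reads that match several places were counted. Whether the 4 windows share reads was not tested. The window at AT5G66755 also overlaps CHR1, also known as DDM1, a chromatin remodeller needed for DNA methylation of transposons.

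Not every tRNA-Glu window followed this. The window at AT3G50665 held 738 AGO3, 57 control and 1525 total reads, so that it was 6.46 over control but 0.536 over total sRNA. The windows at AT3G50505, AT3G51135 and AT3G61545 were also under 4 over total sRNA, at 1.29, 1.71 and 3.09. At AT4G13445, with 126 AGO3, 138 control and 112 total reads, the ratio was 0.687. The other 10 tRNA-Glu windows on the arms had 100 AGO3 reads or fewer, below what the ratio needs.

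**Figure D3:**
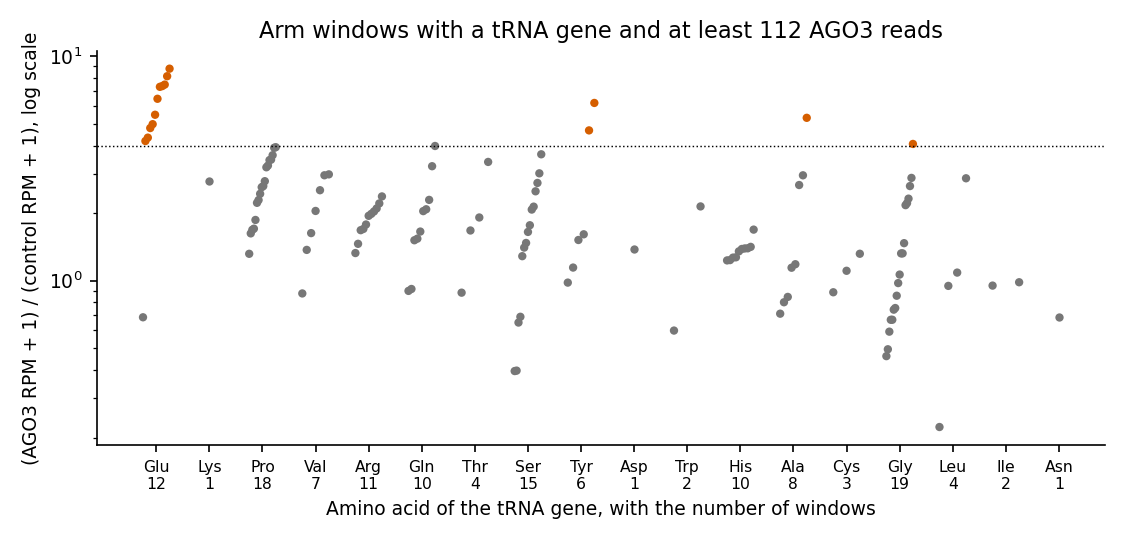
Each point is 1 of the 134 arm windows that hold a tRNA gene and at least 112 AGO3 reads, grouped by amino acid with the number of windows below; the vertical axis is the ratio of RPM plus 1, AGO3 over control, on a log scale. The dotted line is the ratio of 4 and the coloured points are the 15 isolated windows, 11 of them among the 12 tRNA-Glu windows.

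The other structural RNA windows were few. Small nucleolar RNAs guide chemical modification of ribosomal RNA, and 4 genes for them lay at isolated windows. The window chr1:27348501-27349000, at AT1G09333 and AT1G72645, held 5127 AGO3, 800 control and 90 total reads, so that it was 4.31 over control and 42.9 over total sRNA. At chr1:19981501-19982000, with AT1G53542, AT1G07897 and AT1G07903, the reads were 5350, 794 and 694. The tRNA-Ala window at AT4G23915 held 1326, 151 and 36 reads, and was likewise further above total sRNA (19.4) than above the control (5.32).

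Of the 3 miRNA windows, those of MIR393b and MIR319b can be set beside related loci. MIR393b, whose miRNA targets auxin receptor transcripts, held 6857 AGO3, 1032 control and 9716 total reads (ratio 4.49), while MIR393a, with 1003, 515 and 1336 reads, had a ratio of 1.33. MIR319b, of the family that targets TCP transcription factors, spans 2 windows. Its second window was isolated at 5.29 with 2489 AGO3, 303 control and 3828 total reads, while the first, with 8766, 6294 and 36720 reads, had a ratio of 0.959. MIR319a stood at 1.12 and MIR319c at 1.02. Of the MIR159 loci, looked up beside these, MIR159a stood at 3.47 with 231625 AGO3 reads, and MIR159b and MIR159c at 1.09 and 1.00. In the MIR393b and MIR319b windows RPM was higher in total sRNA than in AGO3, and both are among the 6 windows of that kind. The window of MIR5649a and MIR5649b held 219 AGO3 reads, no control read and 3 total reads, at least 50.3-fold above the control by a floor of 3 reads per library.

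Protein-coding genes supplied the single largest ratio. Their median of 6.14 was close to the 6.03 of windows without a gene and below the 7.30 at other non-coding genes. The highest, 74.6, was at AT5G43550 (chr5:17498001-17498500), with 3494 AGO3, 7 control and 7 total reads and 22 and 3 AGO3 reads in the windows beside it. PMEPCRF, a pectin methylesterase gene, held 8271 AGO3, 133 control and 33 total reads (36.1) at chr5:21650001-21650500, and its neighbours 16 and 17 AGO3 reads. REV1, which encodes a DNA polymerase that copies past damaged bases, held 6484 AGO3, 157 control and 1 total read at chr5:18053001-18053500, 24.6 over control and 171 over total sRNA. bZIP23, a regulator of the response to zinc deficiency, held 1816, 30 and 2 reads (23.0). The AGO3 reads were thus far above both other libraries at these 4 genes.

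AMSH1, which encodes a deubiquitinating enzyme, held 963, 10 and 7 reads (19.3), with 512 AGO3 reads in one adjacent window. AT5G42410 held 679 AGO3 reads, no control read and 3 total reads (19.3). PTAC2, a component of the plastid transcription machinery, held 1760, 39 and 12 reads (19.2). YUC10, an auxin synthesis gene, held 9494, 201 and 1650 reads (29.0) at chr1:18093001-18093500, but unlike the others it adjoined a larger peak: the next window held 87995 AGO3, 16296 control and 32224 total reads, at a ratio of 3.71.

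The remaining protein-coding windows with most AGO3 reads had lower ratios and more total sRNA. AT1G17780 held 9405 AGO3, 1313 control and 4921 total reads (4.86), AT1G20405 held 8787, 414 and 1317 (13.8) and AT3G18340 held 7018, 873 and 2639 (5.41). AT1G17780 and AT3G18340 each adjoined a window with more AGO3 reads, 16144 and 21311, at ratios of 2.46 and 3.46.

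Among the 157 protein-coding windows, 62 (39.5%) had at most 10 total reads, against 24 of 138 (17.4%) without a gene and 0 of 19 at structural RNA genes. TIL2, a DNA polymerase epsilon gene, held 2015 AGO3, 225 control and 2 total reads. ALKBH2, a DNA repair gene, held 1781, 137 and 1. At TIL2 and ALKBH2 the control was above total sRNA, with 8.78 and 5.35 RPM in the control and 0.0497 and 0.0248 RPM in total sRNA, so that they were 52.6 and 47.7 over total sRNA but 5.64 and 7.70 over the control. The paralogues BRCA2(IV) and BRCA2B, needed for repair by homologous recombination, held 220, 4 and 1 reads and 202, 6 and 2 reads. These genes of DNA repair and replication were picked after their values were seen. Such genes were not counted among the hosts or over all genes, so they are examples and not a trait of the hosts.

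Gene copies and better-known regulators were also present at lower levels. SPL13A and SPL13B, near-identical copies of a transcription factor gene, held 357, 12 and 77 reads and 353, 20 and 83 reads, and reads matching both copies may have been counted at each. MET1, the enzyme that maintains CG methylation, held 326, 27 and 75 reads (4.75). DWF4, of brassinosteroid synthesis, held 2436, 109 and 638 (12.7), and the window beside it 41298, 8539 and 16166 at a ratio of 3.32. GOA, a MADS-box gene, held 310, 7 and 20 (7.33). LHCB4.3, a light-harvesting protein gene, held 2102, 55 and 68 (18.3). RRS1, a disease resistance gene, held 510, 1 and 19 (14.2).

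Windows without a gene included 3 of the 12 highest ratios. The first, chr2:14653501-14654000 between AT2G34720 and AT2G34730, held 1551 AGO3, 2 control and 0 total reads (39.6), at least 560-fold above total sRNA by the floor of 3 reads, with 2 AGO3 reads on either side. The window chr1:21623001-21623500 between AT1G58280 and AT1G58290 held 1124, 10 and 1 reads (22.5). The window chr1:9137501-9138000 between AT1G26400 and AT1G26410 held 1009, 12 and 87 reads (19.2), and 1311 AGO3 reads lay beside it. By AGO3 reads the leading gene-free window was chr2:15574001-15574500, with 26942, 2016 and 8346 reads (9.10), ahead of chr3:18357001-18357500 between AT3G49510 and AT3G49520, with 16009, 2053 and 5773 (5.32). Of the other non-coding genes, the lncRNA gene AT4G04215 led with 11073, 297 and 838 reads (23.7). It was followed by the window of AT1G08893 and AT1G08897 with 3134, 161 and 353 (11.7) and that of AT5G01415 with 1565, 153 and 155 (6.18). The 6 pseudogene windows ran from 199 to 2162 AGO3 reads, and the one at AT2G01031, with 857, 117 and 3648 reads, had the lowest ratio over total sRNA of all 333 windows (0.262). The pseudogenes AT1G61685, with 2162, 190 and 337 reads, and AT1G19392, with 881, 101 and 374, were 6.31 and 2.40 over total sRNA.

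Isolation was a matter of the threshold in some windows and of sharp single peaks in others. The median AGO3 level was 11.1 RPM in the windows themselves and 0.511 and 0.565 RPM on either side. The window held a median of 86.4% of the AGO3 reads of itself and its neighbours, and in 206 windows (61.9%) both neighbours had fewer than 112 AGO3 reads, too few to reach the ratio. On the other side, 72 windows (21.6%) had a neighbour at a ratio of 3 or more. In 60 windows (18.0%) a neighbour held more AGO3 reads than the window itself, and those neighbours had a median ratio of 2.61. The most read isolated window, chr3:7420001-7420500 at AT3G21170, is of that kind: it held 34797, 5950 and 13567 reads (4.01), and the next window 89113, 37510 and 75019 reads at 1.64.

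**Figure D4:**
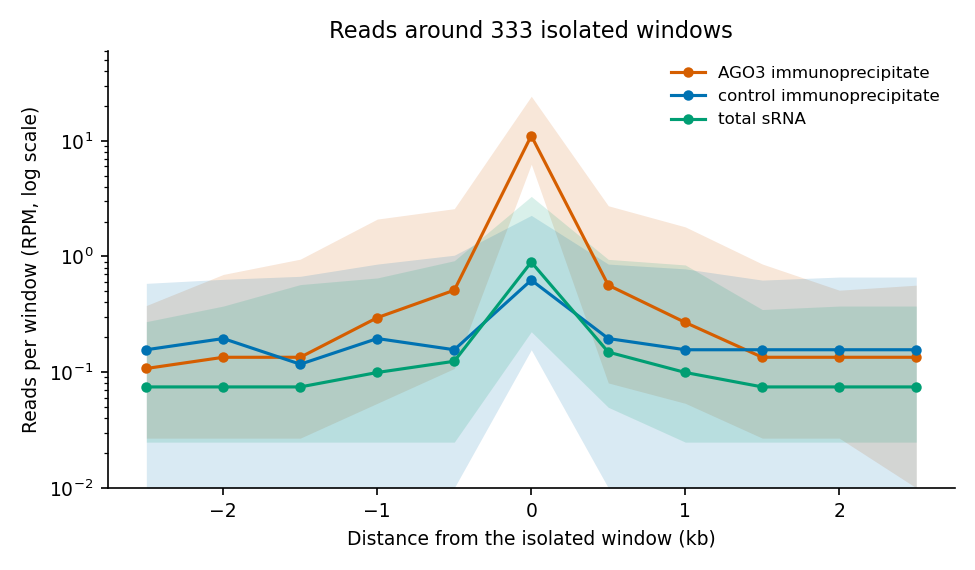
Lines give the median RPM per 500 bp window at distances of up to 2.5 kb from the 333 isolated windows, for the AGO3, control and total sRNA libraries, on a log scale; shading runs from the 25th to the 75th percentile, with values under 0.01 drawn at the lower edge. The AGO3 median is 11.1 RPM at the window and 0.511 and 0.565 RPM in the windows beside it.

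The next enriched window lay a median of 39 kb away and at most 755 kb. For 65 windows (19.5%) it was 2 windows away, with a single unenriched window between, and for 241 (72.4%) it was over 10 windows away. Isolated windows themselves formed 16 runs in which each lay 2 windows from the next, 33 windows in all. The gene-free pair chr2:15574001-15574500 and chr2:15575001-15575500 was split by a window of 46218 AGO3 reads at a ratio of 3.82. The windows with at most 10 total reads held a median of 97.3% of the AGO3 reads of 3 windows, against 83.9% in those with over 100. At protein-coding genes these medians were 97.9% and 74.4%, and in windows without a gene 83.0% and 74.6%. Structural RNA windows with over 100 total reads held 98.2%. Of the 87 windows with at most 10 total reads, 79 (90.8%) had no other enriched window within 10, against 67.7% of the 99 windows with over 100. No control read was found in 29 of the 87 (33.3%) and in none of the 99, where the larger read numbers make a count of 0 less likely.

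The isolated windows overlapped 220 genes, and the mRNA was used to ask whether these host genes differ between ago3-3 and wild-type siliques, a comparison the choice of windows did not use. The 2 wild-type libraries held 31.0 and 16.3 scaled counts (CPM, per 1000000 counts) of AGO3 mRNA, the heterozygous ones 12.3 and 12.4, and the homozygous ones 2.19 and 3.36. The order followed the labels, and the homozygous against wild type difference of -3.15 (log2) had an adjusted p of 0.142 by edgeR's quasi-likelihood test and of 1.67e-19 by DESeq2, which also called AGO3 lower in homozygous against heterozygous (adjusted p 7.55e-08). For AGO2 the values were 47.2 and 57.9 (homozygous), 51.1 and 48.8 (heterozygous), and 45.0 and 41.6 (wild type). In whole siliques, fewer cells of a type and less RNA per cell cannot be told apart.

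Of the 220 host genes, 211 had an mRNA row and 153 passed the filter on low counts. By edgeR with Benjamini-Hochberg adjustment at 0.05, 0 host genes were called in homozygous against wild type, heterozygous against wild type or homozygous against heterozygous, where 0 of 22702 genes (0%) were called in each. At an unadjusted p under 0.05, edgeR had 6, 4 and 3 host genes (3.92%, 2.61% and 1.96%) and 5.70%, 4.43% and 3.28% of all genes tested. DESeq2 gave an adjusted p to 16331, 7669 and 20661 genes in the 3 comparisons. It called 0.465%, 0.235% and 0.111% of them, and 0 host genes. Hosts without an adjusted p could not be called. In heterozygous against wild type these included AT1G22120, PME1, AT3G18340 and AT3G61540, the hosts with the smallest edgeR p. The host genes' median difference was -0.034, -0.022 and 0.011 (log2), with a spread over single library pairs of 0.047, 0.049 and 0.022 (SD), and that of all genes was 0.0081, -0.0034 and 0.0060. The host medians were thus smaller than the spread between libraries, and the first 2 rose above 0 without wild type replicate 1 (0.016 and 0.034).

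**Figure D5:**
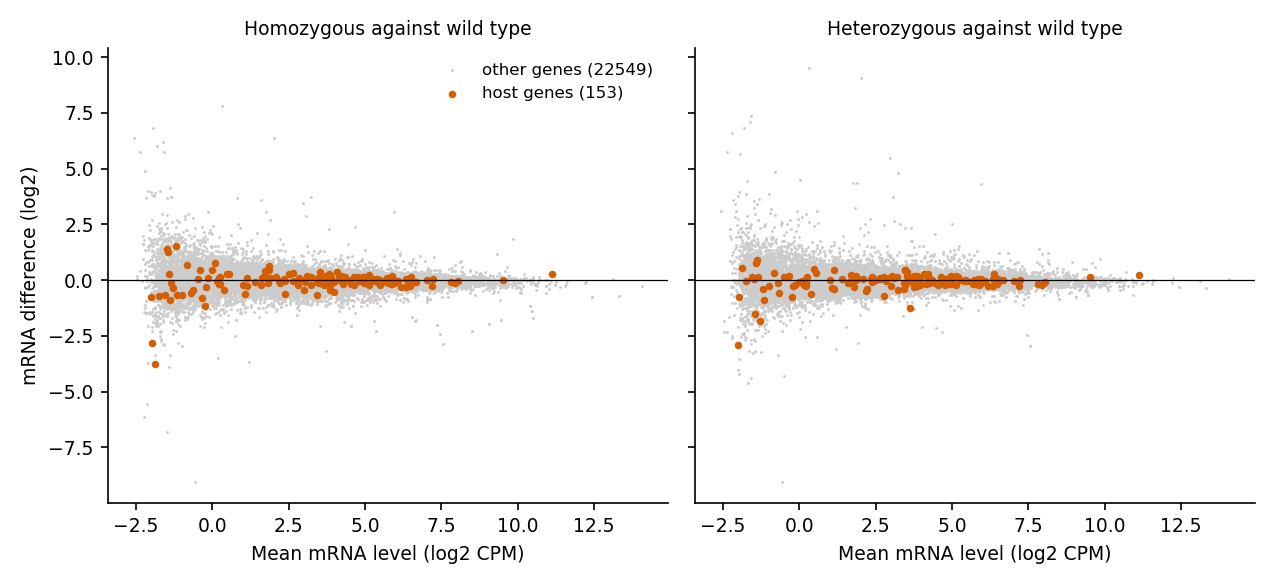
Points are the 22702 tested genes, with the 153 host genes of isolated windows coloured; the horizontal axis is the mean mRNA level (log2 CPM) and the vertical axis the log2 mRNA difference of homozygous (left) and heterozygous (right) against wild type, 2 libraries per genotype. The host genes lie within the cloud of the other genes, and the 2 lowest in the homozygous comparison, AT3G16970 and PLP8, are genes of very low level.

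None of the hosts of the leading windows passed the test. REV1 had 38.0 and 39.3 CPM in the homozygous pair, 33.6 and 39.1 in the heterozygous pair and 30.9 in each wild-type library. Its homozygous libraries lay above both wild-type ones, a log2 difference of 0.23 (SE 0.12). In the same order PMEPCRF had 237 and 260, then 237 and 219, then 277 and 241 CPM, so that homozygous and wild type overlapped and both heterozygous libraries lay below wild type (log2 difference -0.22, SE 0.12). YUC10 had 1.51 and 0.94, then 0.89 and 1.51, then 0.61 and 1.45 CPM, also overlapping. bZIP23 had 9.86 and 9.80, then 9.59 and 9.65, then 7.67 and 8.90 CPM; wild type was lowest, by 0.16 (log2, SE 0.18) against homozygous. MET1 had 64.8 and 68.7, then 51.1 and 61.3, then 59.8 and 50.1 CPM, with homozygous above wild type by 0.20 (log2, SE 0.11). For AMSH1, PTAC2, AT3G21170 and LHCB4.3 the homozygous against wild type differences were 0.05, -0.06, 0.79 and -0.31 (log2; SE 0.10, 0.12, 0.63 and 0.16). Among these, AT3G21170 lay at 0.49 to 1.10 CPM in wild type, and the other 3 at 34.6 CPM or more.

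Of the hosts with an mRNA row, 33 of 211 had no count in any library, and of all genes placed, 4796 of 32536. AT5G43550, SCRL21, AT4G04215 and AT5G42410 had 0 counts in all 6 mRNA libraries, although their windows held 3494, 709, 11073 and 679 AGO3 reads.

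The host genes with the smallest p did not pass the test. AT1G72645, at the snoRNA window, had 14.8 and 11.4 CPM (homozygous) against 19.1 and 16.6 (wild type), a log2 difference of -0.53 (SE 0.18, edgeR adjusted p 0.862). AT1G09333, the snoRNA gene at the same window, had 10.6 and 6.98 against 14.2 and 12.1 CPM (-0.66, SE 0.24). The strand setting of the counting is not given in the sources used here, so reads of the pair may be shared. AT3G49900 had 12.2 and 13.3 against 17.4 and 15.2 CPM (-0.44, SE 0.15). AT3G16970 had 0.03 and 0 against 0.39 and 0.10 CPM, levels near 0. AT1G52750 had 71.7 and 82.8 against 97.9 and 81.2 CPM (-0.29, SE 0.12), and its groups overlapped. In heterozygous against wild type, AT1G22120 had 4.55 and 5.62 against 8.69 and 7.45 CPM (-0.71, SE 0.26) and PME1 7.45 and 8.43 against 9.90 and 11.04 (-0.45, SE 0.17). AT3G18340 had 0.06 and 0.03 against 0.33 and 0.33 CPM (-2.89, SE 1.10), again near 0, and AT3G61540 13.2 and 11.7 against 10.1 and 8.34 (0.39, SE 0.16), each of the 4 with an edgeR adjusted p of 0.955. In homozygous against heterozygous, the smallest p was at AT3G16970 (0.03 and 0 against 0.39 and 0.35 CPM, -4.31, SE 1.25), followed by AT3G50020 (0.49 and 0.72 against 0 and 0.17 CPM, 2.75, SE 1.04), both near 0. PMH1 had 15.6 and 18.0 against 12.6 and 12.5 CPM (0.38, SE 0.15), with no overlap. CHX27 had 0.06 and 0.25 against 0.33 and 0.75 CPM (-1.80, SE 0.85) and AT4G38780 17.6 and 22.8 against 15.5 and 16.1 (0.32, SE 0.16); all 5 had an edgeR adjusted p of 1.00.

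The 173 protein-coding hosts had a median of 3.46 CPM per kb of gene span, against 3.72 for all protein-coding genes, and the 63 of them at windows with at most 10 total reads had 3.88. The 67 at windows with 11 to 100 total reads had 3.27, and the 43 at windows with over 100 had 1.94, the lowest of these groups. Hosts were 211 of the 32536 genes with a position and an mRNA row, so few that short lists of genes would seldom hold one. None of the 10 ARGONAUTE genes or the 16 genes of sRNA synthesis and RNA-directed DNA methylation was a host gene. In the mRNA, 9 and 16 of them were tested and 0 passed edgeR's test in any comparison, while DESeq2 called 1, AGO3, in each comparison of homozygous libraries; their median log2 differences in homozygous against wild type were 0.024 and 0.060, against 0.0081 for all genes.

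All 11 silique, ovule, flower and pollen markers were detected. The 4 silique wall markers FUL, SHP1, SHP2 and IND summed to 329 to 360 CPM over the 6 libraries. The pollen genes AGP6 and AGP11 summed to 60.1 and 53.0 CPM in the wild-type pair, 33.8 and 62.9 in the heterozygous pair and 22.8 and 19.3 in the homozygous pair, so the homozygous libraries were lowest; neither passed edgeR's test (AGP11 log2 difference -1.86, adjusted p 0.830). DESeq2 called both lower in homozygous against wild type (adjusted p 4.54e-07 for AGP11 and 0.0134 for AGP6), and AGP11 also in homozygous against heterozygous (0.00314). Their part in the host genes' values was not tested.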

How the data were processed

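The submitters' processing notes name Bowtie, HISAT2, featureCounts and the build TAIR10 for the series, with no versions; read lengths and the handling of reads with several matches are not stated there. The deposited sRNA table held raw read counts per 500 bp window, with 1 column per library, and all 1043 organelle windows held 0 reads. The deposited mRNA table held the authors' estimated counts for each gene without depth scaling, and the processing notes do not say which of the named tools made them. Of these values 7.88% were not whole, and all were rounded.

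RPM was taken over chromosomes 1 to 5. Coordinates are those of the deposited table, counted from 1; genes were placed by a RefSeq table of TAIR10.1, used only for names and overlap. As a check, 326 miRNA genes held a median of 278 total sRNA reads in their own windows and 3 when moved by 5000 bp. Ratios use RPM plus 1. Intervals are exact Clopper-Pearson 95% intervals that treat windows as independent.

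The 6 mRNA libraries were fitted together with edgeR 4.0.16 (filterByExpr, TMM, quasi-likelihood test, Benjamini-Hochberg adjustment at 0.05, 3 residual degrees of freedom, biological coefficient of variation 0.185; limma 3.58.1, R 4.3.3), without a block. SEs are the log2 difference divided by the root of F. DESeq2 1.42.0 was the alternative. The fit was tested on simulated data. The series design text calls the 2 mRNA libraries of a genotype biological samples and says that sRNA sequencing was not replicated; whether the former came from separate plants is not said. Windows were handled in Python 3.11.15 (pandas 2.3.3, numpy 2.4.6, scipy 1.17.1), and figures drawn with matplotlib 3.10.9.

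The windows, gene lists and settings were chosen with earlier results of these data known. Named windows were the 12 highest ratios, the 12 with most AGO3 reads, the 3 most read of each gene class, those next to the threshold and those at miRNA or listed genes; named hosts were those of named windows and those with the smallest p. Other windows named were picked for their values or their gene's known role. No sequences are shown.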

Additional observations from a re-analysis of the deposited data

How the results depend on the processing

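The number of isolated windows stayed within 1.5 times of 333 under 7 of 10 settings, including other arm limits, a ratio of 3, wider isolation and RPM without the 100 most read windows. It was 513 with a pseudocount of 0.5 RPM, 145 with 5 RPM and 180 at a ratio of 8. With 5 RPM, 38.6% of windows were protein-coding and 49.7% without a gene. At a ratio of 8, 52.8% were without a gene, 1.11% at structural RNA genes (2 windows) and 47.8% also 8 over total sRNA. With protein-coding genes taking precedence, an order tried after the data were seen, 1.80% were structural RNA. The other class and total sRNA shares stayed within their main intervals. For the mRNA, in the order homozygous against wild type, heterozygous against wild type and homozygous against heterozygous, DESeq2 called 76, 18 and 23 genes against 0 by edgeR; without a filter beyond 1 read edgeR called 4, 0 and 0. Leaving out single libraries gave 0 to 3, 0 to 4 and 0 to 1 calls, the non-zero counts coming without wild type replicate 1 or 2, and host medians of -0.049 to 0.016, -0.066 to 0.034 and 0.0034 to 0.018. With both wild type replicate 1 and homozygous replicate 2 left out, the 2 libraries apart on the first principal component, a setting added once the data were seen, each of those genotypes has 1 library, assumed to vary like the heterozygous pair that alone gives the spread; then 54, 22 and 5 genes were called and the first 2 host medians were 0.019 and 0.036. Replicate numbers did not pair the libraries (correlations -0.0877, -0.364 and -0.0447); with the replicate block 0 genes were called and the host medians were -0.020, -0.029 and 0.011. The cause of these shifts was not tested. Depth limits windows under 112 AGO3 reads, which cannot meet the ratio, and 1 library per sRNA condition leaves all sRNA differences without a replicate check.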
